A study of Caenorhabditis elegans with 34 samples.

Results

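The first-stage (L1) larval sort of Caenorhabditis elegans consists of 4 libraries of polyadenylated RNA, 2 from GFP-positive cells labelled intestine and 2 from GFP-negative cells labelled non-intestine, of 34 libraries in the labels. They were chosen by title alone, as replicates 1 and 3 of each fraction. Replicate 2 of each L1 fraction was not analysed here. All libraries come from strain JM149, whose transgene caIs71 joins GFP to the histone HIS-2B under the elt-2 promoter and also carries rol-6(su1006). GFP-positive and GFP-negative cells therefore share 1 genotype and differ by the gate, which reads the activity of a promoter fragment in a nuclear reporter. For each replicate 300000 GFP-positive and 1000000 GFP-negative cells were sorted, after 2 min of SDS-DTT, 30 min of pronase E and 100 strokes of a dounce pestle. The other libraries used here are dissociated unsorted L1 cells, whole L1 animals and the same sorts of embryos and third-stage (L3) larvae.

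The worm intestine is the endoderm of the animal, a tube of large polarised cells that digests food, stores lipid and makes yolk and defence proteins. ELT-2 is a zinc-finger GATA factor that is first made in the early endoderm and remains on through adult life, and it binds the site TGATAA in front of many intestinal genes. The GFP-negative cells of an L1 larva hold muscle, neurons, epidermis, pharynx, glia and the germ-line precursors.

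Rows of the count table carry no gene identifier, and each is named here by its number in the table. No marker of intestine or of another tissue could therefore be looked up to check the gate. Totals were 43366963 and 18368116 counts in GFP-positive replicates 1 and 3, and 40893576 and 14608535 counts in GFP-negative replicates 1 and 3. Replicate 1 was run on a HiSeq X-ten and replicate 3 on a NovaSeq 6000, and the number and the instrument cannot be told apart. The 2 libraries of each fraction differed by far more than counting noise: the chi-square statistic of their counts was 167.2 times its degrees of freedom in GFP-positive and 138.3 times in GFP-negative cells.

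The sort separated rows more abundant in GFP-positive cells from rows more abundant in GFP-negative cells. Of 16758 rows tested, 3219 (19.2%) had more RNA in the GFP-positive fraction and 2281 (13.6%) had less, by edgeR's quasi-likelihood test at a Benjamini-Hochberg adjusted p under 0.05. A row was counted as held when it was called and differed at least 2-fold in the same direction in replicate 1 alone and in replicate 3 alone. By that rule 2730 rows (16.3%) were held higher and 2011 (12%) were held lower. Since cells were pooled before RNA was taken, more cells of a type and more RNA per cell cannot be told apart in these levels. The 4741 held rows left 489 higher and 270 lower calls that were under 2-fold in at least 1 pair. Of all called rows, 18 had pair ratios of opposite sign or against the call. Which direction held more calls depended on the tool and the libraries. DESeq2 called 3308 rows higher and 3381 lower, edgeR called 2660 higher and 2873 lower without GFP-positive replicate 3, and 2365 higher and 2463 lower without GFP-negative replicate 1. The lower calls leaned on single libraries, with 1281 called and 1222 held without GFP-positive replicate 1. When all HiSeq X-ten libraries were left out, 1798 rows were called higher and 1220 lower.

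Both pairs entered the rule for held rows, so their sizes describe the chosen rows and do not test how alike the pairs were. Within these rows the medians of the pairs were of similar size. Rows held higher had a median log2 ratio of 3.90 in replicate 1 and 3.47 in replicate 3, and rows held lower had medians of -3.05 and -2.89. The effect was at least 8-fold in each pair for 1418 rows held higher and 650 held lower. In GFP-negative cells 125 of the rows held higher had 0 counts in both libraries, and in GFP-positive cells 74 of the rows held lower had 0 counts in both. With such rows set to the bound that 3 counts over the fraction allow, the median fitted log2 fold change was 3.85 for rows held higher and -3.18 for rows held lower, against 3.95 and -3.25 as fitted.

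The 2 pairs were then set against each other over all rows, whether called or not. Across the 16758 rows the pair ratios had a Pearson r of 0.788 and a Spearman rho of 0.684. The rows are not independent replicates, and the points share libraries within a pair. At least 2-fold in the same direction were 3197 rows higher and 3109 rows lower in both pairs. At least 2-fold in opposite directions were 280 rows higher in replicate 1 and lower in replicate 3, and 251 rows the other way. At 8-fold, 2 rows were opposite. Opposite ratios of 2-fold or more were most frequent among weakly expressed rows, at 7.56% of rows with a mean under 1 CPM over the 4 libraries, 4.78% between 1 and 10 CPM and 0.609% between 10 and 100 CPM.

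**Figure D1:**
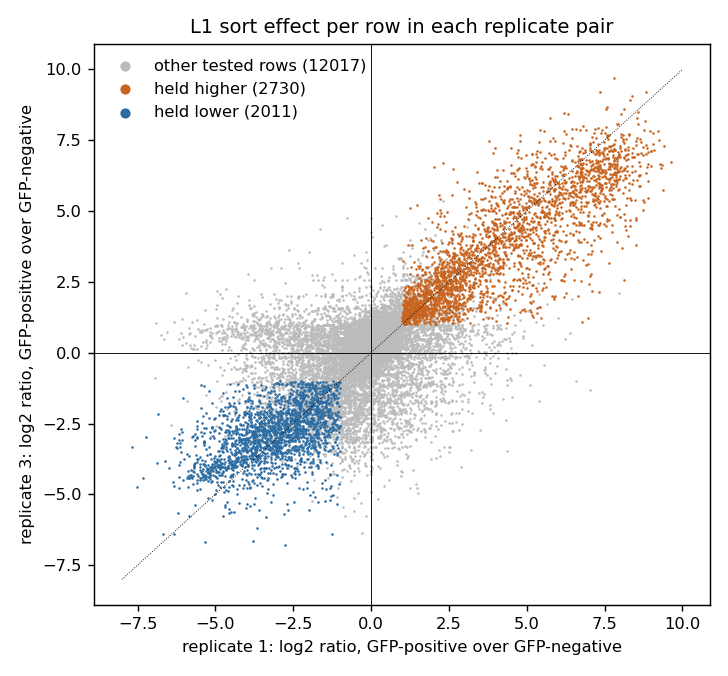
Each point is a row, with its log2 ratio of GFP-positive over GFP-negative CPM in replicate 1 on the x axis and in replicate 3 on the y axis. The 2730 rows held higher and the 2011 held lower lie along the dotted line of equal ratios, and a grey band of rows is low in replicate 1 and near 0 in replicate 3.

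The scatter also held rows with an effect in 1 pair. In GFP-positive cells 824 rows were at least 4-fold lower than in GFP-negative cells in replicate 1 and within 2-fold in replicate 3. The mirror count, lower in replicate 3 and within 2-fold in replicate 1, was 586 rows. On the higher side the counts were 336 rows for replicate 1 and 103 rows for replicate 3. Among rows with a mean of at least 1 CPM these counts were 593, 321, 198 and 60, in the same order. Tested in each pair alone, with the spread taken from the other 26 libraries, 2393 rows (14.3%) were higher and 1906 (11.4%) lower in replicate 1, and 2038 (12.2%) were higher and 886 (5.29%) lower in replicate 3. In each pair alone 1711 rows (10.2%) were called higher and 656 (3.91%) lower by this edgeR fit. Higher rows made up more of the calls in replicate 3 than in replicate 1. Their share was smaller in both pairs with only larval libraries in the fit. Those libraries were also filtered and scaled anew. The median log2 fold change over all rows then moved from -0.04 to -0.31 in replicate 1 and from 0.17 to -0.06 in replicate 3. The test of the difference between the pairs called 0 rows (0%) in edgeR, with 1392 rows at an unadjusted p under 0.05, 0 in limma voom and 2 with only larval libraries in the fit. That test assumes that each lone library varies as the other groups do, and few calls do not show that the pairs were alike.

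Held rows were found at every level of expression. Among rows with a mean of 100 to 1000 CPM over the 4 libraries, 27.3% were held higher and 13.3% held lower. Between 10 and 100 CPM the shares were 22% and 11.1%, and between 1 and 10 CPM they were 13.7% and 16%. Of the 198 rows over 1000 CPM, 29 were held higher and 45 held lower. Under 1 CPM 101 of 3371 rows were held higher and 216 held lower. The median standard error of the log2 fold change was 1.37 under 1 CPM and 0.353 between 100 and 1000 CPM. In GFP-positive replicates 1 and 3, 50% of counts lay in 361 and 407 rows, against 235 and 237 rows in GFP-negative replicates 1 and 3. Within each pair fewer rows reached 1 CPM of the raw library total in GFP-positive cells. The counts were 11352 against 11801 in GFP-negative cells in replicate 1, and 11964 against 12469 in replicate 3. The most abundant single row took 1.32% and 1.13% of counts in GFP-positive libraries, against 3.49% and 2.78% in GFP-negative libraries.

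Single rows show what a held effect looks like in the libraries. They were taken as the 2 held higher and the 2 held lower rows, with a mean of at least 10 CPM, whose weaker pair had the largest ratio. Row 11858 had 45.4 and 41.2 CPM in GFP-positive replicates 1 and 3, against 0.031 and 0 CPM in GFP-negative replicates 1 and 3. The GFP-negative values rest on 1 and 0 reads, so the ratio was 1460-fold in replicate 1 (95% exact interval 262 to 57900) and at least 174-fold higher in replicate 3 against 3 counts. Its edgeR log2 fold change was 10.71 ± 1.39 (SE), with an adjusted p of 2.48e-06. Dissociated cells had 3.5 and 4.38 CPM of row 11858 and whole L1 animals 6.19 and 1.6 CPM, between the sorted fractions.

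Row 5358 had 167 and 81.3 CPM in GFP-positive replicates 1 and 3, against 0.372 and 0.158 CPM in GFP-negative replicates 1 and 3. The groups were far apart, although the GFP-positive libraries differed from each other about as much as the GFP-negative ones. The ratio was 450-fold in replicate 1 (95% exact interval 257 to 871) and 515-fold in replicate 3 (142 to 4260), intervals that cover counting error only. The log2 fold change was 8.73 ± 1.25 (SE), with an edgeR adjusted p of 9.24e-06. The row was also higher in GFP-positive cells of embryos, at a log2 fold change of 4.34 ± 0.934 (SE, edgeR adjusted p 0.000786), and of L3 larvae, at 6.53 ± 0.949 (SE, edgeR adjusted p 1.33e-05).

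Row 10249 had 0.258 and 4.85 CPM in GFP-positive replicates 1 and 3, against 18.8 and 265 CPM in GFP-negative replicates 1 and 3. Both fractions were higher in replicate 3, while the ratio stayed close, at 73.2-fold lower in GFP-positive cells in replicate 1 (36.9 to 170) and 54.7-fold lower in replicate 3 (43.2 to 70.2). Row 10397 behaved alike, with 0.161 and 2.53 CPM in GFP-positive cells, against 7.87 and 95.5 CPM in GFP-negative cells. Its log2 fold change was -5.33 ± 1.27 (SE), with an edgeR adjusted p of 0.00215. Dissociated replicate 1 had 27 CPM of row 10249 and 10.1 CPM of row 10397, above both sorted fractions of replicate 1. Dissociated replicate 3 had 63.7 and 20 CPM, between the fractions of replicate 3. Whole L1 animals had 19.2 and 20 CPM of row 10249 and 7.08 and 7.73 CPM of row 10397. Neither row passed in the unpaired fit without GFP-negative replicate 3. Row 10249 then had a log2 fold change of -3.12, against -5.86 with it (edgeR adjusted p 0.00249), and row 10397 had -2.79. That fit set both GFP-positive libraries against GFP-negative replicate 1 alone, which breaks the pairing. With only the 4 sorted libraries and a term for replicate number (the replicate block), both rows passed. Their edgeR adjusted p was 0.000952 and 0.0013, against 0.0628 and 0.069 without the block. Neither row was called lower in the embryo sort or the L3 sort, although the fold changes were below 0. Row 10249 had log2 fold changes of -1.83 in embryos and -1.82 in L3 larvae (edgeR adjusted p 0.124 and 0.14). Row 10397 had -2.1 and -1.9 (edgeR adjusted p 0.0606 and 0.0926).

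**Figure D2:**
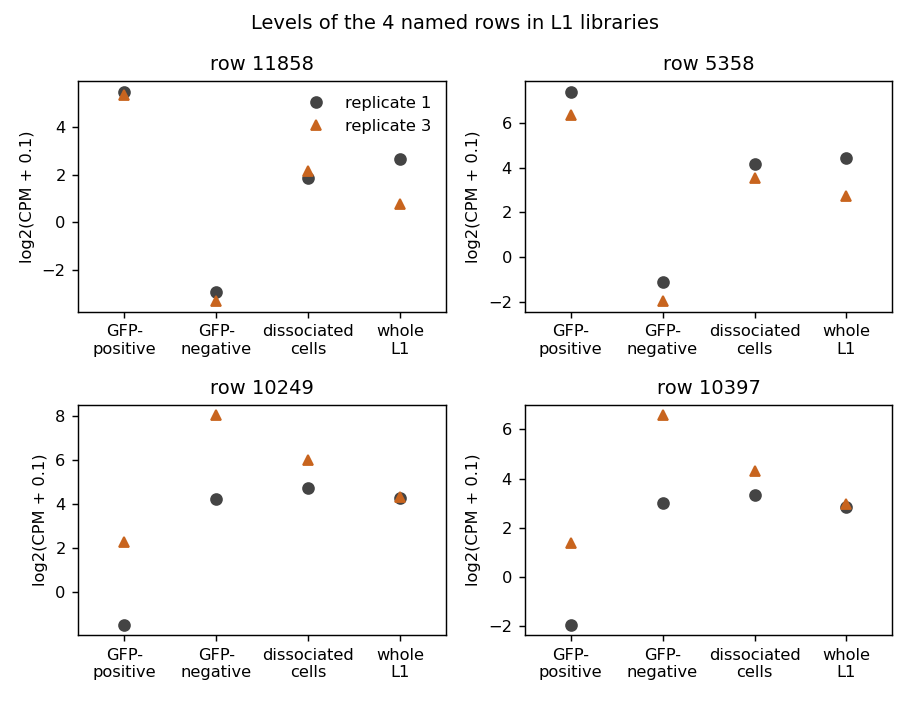
Each panel plots 1 row as log2(CPM + 0.1) in the L1 libraries, with circles for replicate 1 and triangles for replicate 3. Rows 11858 and 5358 are high in GFP-positive and low in GFP-negative cells with unsorted libraries between, and rows 10249 and 10397 are higher in replicate 3 than in replicate 1 in both sorted fractions.

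The rows held higher took 35.9% and 34.0% of the counts of GFP-positive replicates 1 and 3, against 3.98% and 4.15% of GFP-negative replicates 1 and 3. Rows held lower took 3.74% and 4.09% of GFP-positive and 33.6% and 32.6% of GFP-negative libraries. These libraries chose the rows, so the shares only describe them. The levels of the unsorted libraries did not enter the comparison that chose the rows, although those libraries gave part of the spread in the fit. With only the 4 sorted libraries in the fit 3386 rows were held. In dissociated cells the rows held higher took 9.63% and 9.70% of counts, against 15.5% and 16.0% in whole L1 animals. Rows held lower took 24.8% and 24.9% of dissociated cells, against 21.1% and 17.5% of whole animals. The dissociated libraries thus lay below the whole animals in rows held higher and above them in rows held lower, with no overlap, although 2 libraries against 2 allow no exact p under 0.05. Between dissociated cells and whole animals edgeR called 4 of the rows held higher as higher, against 3.15% of all rows. It called 180 (6.59%) as lower, against 6.65% of all rows, a share near the background. The median log2 fold change of the rows held higher was -0.50 (quartiles -1.005 and -0.02), against -0.03 for all rows. With RLE scaling the medians were -0.625 and -0.162. Most rows held higher thus had less RNA in dissociated cells, though few were called. Of the rows held lower, 106 (5.27%) were called higher and 118 (5.87%) lower in dissociated cells, with a median log2 fold change of 0.05, and of -0.07 with RLE scaling. The larger share of counts in rows held lower was therefore not matched by a shift of most of these rows.

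**Figure D3:**
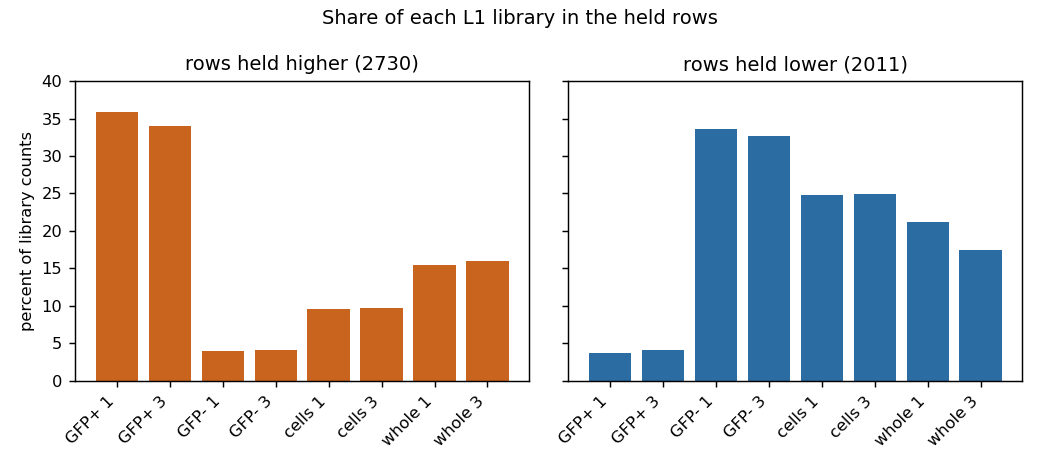
Bars give the percent of each library's raw counts in the rows held higher (left) and held lower (right) for GFP-positive, GFP-negative, dissociated and whole L1 libraries, replicates 1 and 3. Unsorted libraries lie between the sorted fractions in both panels.

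Embryo and L3 sorts share no library with the L1 sort, although all were in 1 fit, and the held rows were measured in each. Rows held higher were mostly higher in GFP-positive cells at both stages. In the embryo sort 1795 of 2730 (65.8%) were higher in GFP-positive cells and 87 lower, against 18.8% higher among all rows, and their median log2 fold change was 2.77, against -0.55 for all rows. In the L3 sort 2079 (76.2%) were higher and 15 lower, again against 18.8% of all rows, with a median of 2.76 against 0.13. Rows held lower differed between the stages. In the embryo sort 880 of 2011 (43.8%) were lower in GFP-positive cells and 117 higher, against 26.1% lower among all rows, with a median of -1.44. In the L3 sort 231 (11.5%) were lower and 140 higher, against 19% lower among all rows, so that the share lower was under the background. The L3 median of the rows held lower was -0.21, and with RLE scaling 161 were lower and 199 higher, while with library totals 154 were lower and 163 higher. Those scalings moved the L3 median of all rows to 0.30 and 0.26, and the lower rows stayed below it at -0.04 and -0.07.

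**Figure D4:**
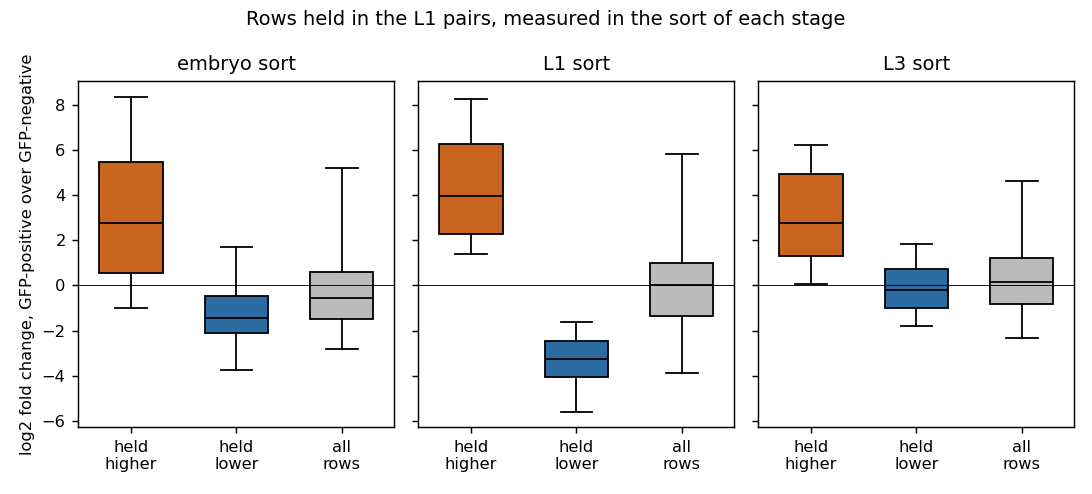
Boxes give the median and quartiles, and whiskers the 5th to 95th percentile, of edgeR log2 fold changes of GFP-positive over GFP-negative cells in the embryo, L1 and L3 sorts. Rows held higher in L1 are high at all 3 stages, while rows held lower are near 0 in L3, with a median of -0.21.

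The difference of the sort effect was tested as L1 minus the mean of embryo and L3. In this edgeR contrast 1815 rows (10.8%) had a more positive and 1341 (8%) a more negative effect in L1. Positive differences made up 57.5% of calls, and 42.5% with RLE scaling, which moved the median over all rows from 0.22 to -0.05. Among rows held higher 673 were more positive and 41 more negative in L1, and among rows held lower 925 were more negative and 0 more positive, and under RLE scaling the counts were 494 and 62, and 1079 and 0. The L1 libraries both chose the held rows and entered this contrast, which favours an effect larger in L1. The row 11858 effect was 4.63 ± 1.5 (SE) larger in L1 on the log2 scale (edgeR adjusted p 0.0351). The difference for row 5358 did not pass, at 3.3 ± 1.23 (SE, edgeR adjusted p 0.0626). Rows 10249 and 10397 did not pass either, at -4.04 ± 1.44 (SE, edgeR adjusted p 0.0516) and -3.34 ± 1.3 (SE, edgeR adjusted p 0.0719). Against 3156 called rows with all libraries, leaving out GFP-positive replicate 1 gave 1878, leaving out GFP-positive replicate 3 gave 1891 and leaving out GFP-negative replicate 3 gave 1321. The count was 1535 when the HiSeq X-ten libraries were left out.

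Between the GFP-positive libraries 1 set of rows was called. The test sets 1 library against 1, so rows that are not called are not shown to be alike. This holds for GFP-negative cells too, where row 10249 had 18.8 and 265 CPM in replicates 1 and 3 and was not called. With each sorted library given its own mean, 152 rows (0.907%) were higher and 0 lower in GFP-positive replicate 3 than in GFP-positive replicate 1, at a median log2 fold change of 5.43. Their median level was 11.1 CPM in GFP-positive replicate 3 and 0.29 CPM in GFP-positive replicate 1, and 29 of them had 0 counts in replicate 1. In GFP-negative cells, which did not choose them, the medians were 7.14 CPM in replicate 3 and 7.6 CPM in replicate 1. In replicate 3 the GFP-positive level was at least 2-fold under the GFP-negative level for 6 of the 152 rows. It was at least 2-fold over that level for 32. In replicate 1 the GFP-positive level was at least 2-fold under the GFP-negative level for 151. Both GFP-positive libraries chose the rows, so their levels, shares and ratios to GFP-negative cells only describe the set. In GFP-negative cells the same edgeR test of replicate 3 against replicate 1 called 0 rows (0%), with 1641 at an unadjusted p under 0.05, 0 in limma voom and 2 with only larval libraries in the fit.

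At the other stages these 152 rows were mostly lower in GFP-positive cells or not called. In the L3 sort 127 (83.6%) were lower and 0 higher in GFP-positive cells, with a median log2 fold change of -2.57, against 19% lower and a median of 0.13 for all rows. In the embryo sort 69 (45.4%) were lower and 2 higher, with a median of -1.77, against 26.1% and -0.55. Their median level was 1.13 to 5.53 CPM in the 3 GFP-positive L3 libraries, against 19.2 to 20.2 CPM in the 3 GFP-negative L3 libraries. In dissociated L1 cells it was 10.97 and 7.78 CPM, and in whole L1 animals 2.0 and 2.9 CPM. Of the 152 rows, 5 were called lower in the L1 sort as a whole and 1 higher. The set took 0.253% of the counts of GFP-positive replicate 3 and 0.0209% of GFP-positive replicate 1, against 0.168% and 0.17% of GFP-negative replicates 3 and 1. The rows held lower took shares of the GFP-positive libraries that were much closer, as given above. Their rule asked for a lower level in GFP-positive cells in both pairs, which favours close shares. The 152 rows were chosen for a difference between those libraries, so no conclusion is drawn from this contrast. With limma voom 60 rows were higher, 50 of them among the 152, and 37 of the 60 were lower in the L3 sort. With only larval libraries in the fit the set called higher was also smaller and only partly shared with the 152. In that fit and with limma voom a few calls went the other way, lower in GFP-positive replicate 3. RLE scaling and library totals gave no such call. The part of the sequencer, of the gate or of other cells in the difference between the GFP-positive libraries was not tested.

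**Figure D5:**
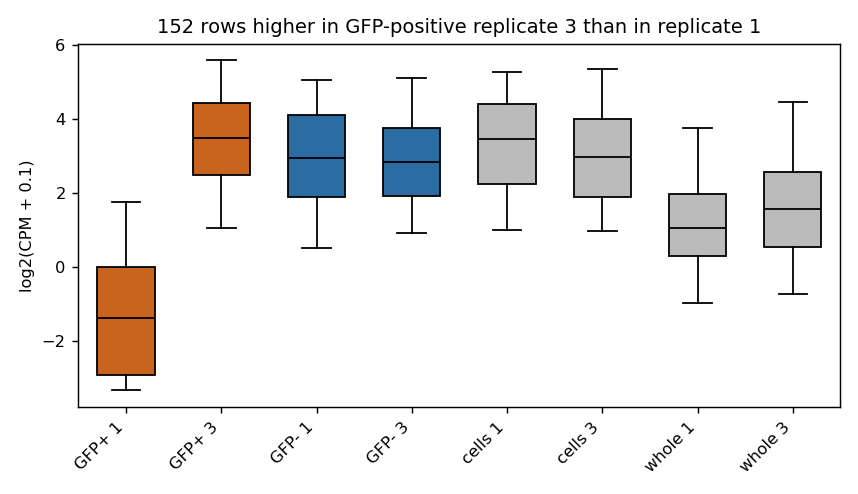
Boxes give the median and quartiles, and whiskers the 5th to 95th percentile, of log2(CPM + 0.1) for the 152 rows in each L1 library. Both GFP-positive libraries chose these rows. GFP-positive replicate 1 lies far below the other sorted and dissociated libraries, and GFP-positive replicate 3, at a median of 11.1 CPM, lies above the GFP-negative libraries, at 7.14 and 7.6 CPM.

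Sorted cells were also set against the dissociated cells they came from. GFP-positive cells had 3168 rows higher (18.9%) and 2245 lower (13.4%), with higher rows at 58.5% of calls under TMM scaling and 32.9% with library totals, which moved the median over all rows from 0.15 to -0.44. Leaving out GFP-positive replicate 1 gave 2094 called rows, leaving out dissociated replicate 3 gave 2654, and leaving out all HiSeq X-ten libraries gave 1259. GFP-negative cells differed from dissociated cells in fewer rows, with 10 higher (0.0597%) and 511 lower (3.05%) and a median log2 fold change of -3.54 among the lower ones. Together they numbered 38 without GFP-negative replicate 1, 1 when all HiSeq X-ten libraries were left out and 817 with library totals. The mean log2 level of both sorted fractions was also set against dissociated cells, over all rows. A mixture of the fractions lies near that mean only where the sort effect is small. Few calls therefore do not show that sorted and dissociated cells matched. This contrast gave 0 rows higher and 2 lower (0.0119%) in edgeR, with 3099 at an unadjusted p under 0.05. This last count was unstable, at 581 without GFP-positive replicate 3, 334 without GFP-negative replicate 3, 0 without any 1 of the other L1 libraries of the comparison, and 827 with library totals.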

How the data were processed

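Polyadenylated RNA was sequenced at 2 x 150 bp, per the labels' protocols. Per the submitters' processing notes, the tools included featureCounts 1.6.4, HISAT2 2.1.0, DESeq2 1.28.1 and fastp 0.20.0, and the genome build was ce11. The notes give no roles. The authors deposited raw counts in 16762 rows, of which none totals under 75. Their row filter and counting options are not given in the sources used here, and how reads of overlapping or near-identical genes were divided is not known. The deposited normalized signal equals raw counts times 1 constant per library, within 5e-07, and was not tested. The deposited log2 table, which its name calls rlog, gives no value in the text.

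Raw counts of 30 libraries were filtered (filterByExpr, minimum count 10) to 16758 rows, scaled by TMM and fitted with edgeR 4.0.16 in R 4.3.3 as 1 quasi-likelihood model with 1 mean per group (18 residual degrees of freedom). Tests were two-sided F-tests with Benjamini-Hochberg adjustment over all rows, called at 0.05. Standard errors are the log2 fold change over the square root of F. For single pairs and replicate differences each of the 4 L1 sorted libraries had its own mean (16 residual degrees of freedom). CPM are after TMM, except that the counts of rows reaching 1 CPM used raw library totals. Log2 ratios per pair used a prior count of 2. Shares used raw counts, with 95% Wilson intervals of at most 0.05 percentage points that cover counting error only. Alternatives used limma 3.58.1 and DESeq2 1.42.0. The procedure was also run on simulated counts that held no replicate or sequencer effect, so that run does not test the calls in these libraries.

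The comparison, its row groups and the rule for named rows were chosen with earlier results of these data known. The gene lists of the plan could not be applied, as rows carry no identifier. Replicate numbers pair the L1 libraries through the sequencer that the labels give for each number, and deviations of replicate 3 from replicate 1 correlated across rows at 0.232 between GFP-positive and GFP-negative cells.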

Additional observations from a re-analysis of the deposited data

Results flagged for a closer look

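The L1 sort effect differed from the mean of the embryo and L3 sort effects in 3156 rows, by a test of the difference itself in edgeR. Larval and embryonic cells were dissociated by different protocols, and 2 L1 libraries per fraction were set against 3 at each other stage. The part of either in the count was not tested.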

How the results depend on the processing

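The L1 sort called 2226 to 2660 rows higher, 1281 to 2873 lower and 3531 to 5533 in all when each L1 sorted library was left out in turn, with 2204 to 2577, 1222 to 2731 and 3468 to 5308 held in the pair or pairs that remained. Without the HiSeq X-ten libraries it called 1798 higher, 1220 lower and 3018 in all, with 1798, 1197 and 2995 held. With only the 4 sorted libraries in the fit 1194 were lower, 3450 called and 1170 held lower. With all libraries and the replicate block 5959 rows were called in the L1 sort and 5029 held, and 44 differed between sorted and unsorted cells. With the 4 libraries and the block 1437 were lower, and no other count moved over 1.5 times under the block. At an adjusted p under 0.01, 1278 were lower and 1231 held lower. With a minimum fold of 2 in glmTreat 1407 were lower and 3605 called.

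Against dissociated cells, GFP-positive cells gave 2094 to 4695 calls with a library left out and 1259 without the HiSeq X-ten libraries. GFP-negative cells gave 38 to 398, 1 without those libraries and 817 with library totals. The mean of both fractions gave 0 to 581, 0 without the HiSeq X-ten libraries, 4 with RLE scaling and 827 with library totals. The L1 effect against the other stages gave 1321 to 2904, and 1535 without the HiSeq X-ten libraries. With only larval libraries in the fit the pair difference called 2 rows and the GFP-negative replicate difference 2, and limma voom called 61 rows between the GFP-positive replicates. The fold changes of rows 11858 and 5358 passed under every alternative run. Rows 10249 and 10397 did not pass without GFP-negative replicate 3, in a fit that breaks the pairing. They also did not pass with only the 4 sorted libraries in the fit, at edgeR adjusted p = 0.0628 and 0.069. With the replicate block in that fit they passed, at 0.000952 and 0.0013. No fold change of the 4 named rows reversed. Apart from construction (fewer samples, a stricter threshold), the cause of these shifts was not tested. Alternatives on the mean CPM were added after seeing the data. The 2 libraries per fraction limit all L1 estimates.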
